A study of Homo sapiens with 16 samples.

Results

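This report describes 38 genes of glucose uptake, glycolysis, lactate and pyruvate handling and glycogen metabolism in 2 human acute myeloid leukaemia lines treated with NEL. The genes were chosen by name from these textbook pathways, with fold changes and levels of the same libraries already known, so their counts of calls and their adjusted p-values are a description and support nothing beyond it. All 38 symbols were found among the 34618 genes of the deposited table. KG1A is an immature, CD34-positive leukaemia line, and U937 is a promonocytic one. Each line was grown in RPMI medium with dialyzed serum and received either NEL at 10 µM or its vehicle, DMSO, which gave 4 groups of 4 libraries (KG1A with DMSO, KG1A with NEL, U937 with DMSO and U937 with NEL). Polyadenylated RNA was sequenced with a stranded kit in all 16 libraries. The labels do not spell out NEL, give no treatment time and name no separate cultures behind the 4 libraries of each group. P-values therefore rest on the spread between libraries, which may be technical only. Each line is a single established culture model, and both lines shared the medium.

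Glycolysis splits glucose into pyruvate in the cytosol and yields a small amount of ATP without oxygen. Pyruvate then either becomes lactate, which leaves the cell through monocarboxylate transporters, or enters mitochondria, where the pyruvate dehydrogenase complex turns it into acetyl-CoA unless a pyruvate dehydrogenase kinase has phosphorylated and silenced the complex. Glucose can also be stored as the branched polymer glycogen, and several genes of these routes are known targets of the hypoxia-inducible factors and of MYC.

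Total counts per library ranged from 10641567 to 11777684, and a gene with 0 counts in a library could still be present at up to 0.2547 to 0.2819 CPM (a gene's count scaled to a common library total, here with edgeR's TMM factors). The line labels could be checked with markers. CD34 averaged 889 CPM in KG1A with DMSO and 0.333 CPM in U937 with DMSO. The other immature markers, KIT and PROM1, were scarce, at 2.12 and 1.07 CPM in KG1A with DMSO and 0.558 and 0.0447 CPM in U937 with DMSO. The 6 monocytic markers summed to 348 to 364 CPM in U937 with DMSO and to at most 2.76 CPM in any KG1A library. With NEL that sum was 485 to 513 CPM in U937, where LYZ, CD33 and CD4 made up most of it while CD14 and MPO stayed below 0.5 CPM on average in every group. CSF1R moved most among them in U937, from 2.69 ± 0.394 to 19.3 ± 0.733 CPM (7.17-fold). KG1A with DMSO also held 118 CPM of the T lymphoid gene CD3D and 27.5 CPM of CD3E, but only 0.0697 CPM of CD2. The 3 erythroid markers were at 0 in all libraries. The mitochondrial share of counts was 8.24% to 10.4% in KG1A with DMSO and 7.34% to 9.94% with NEL, and 7.09% to 9.33% and 5.89% to 7.29% in U937. The part of the markers and of this share in the results was not tested, and in such bulk RNA a change in the share of cells of a type and a change in RNA per cell cannot be told apart. In every group the odd-numbered libraries (1 and 3) stood apart from the even-numbered ones (2 and 4) in their overall profile, so results are also given within each set of numbers where a call changed.

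With NEL, members rose more often than they fell in U937, and in KG1A the calls went both ways. In U937, 21 of the 37 members tested rose and 6 fell at an adjusted p under 0.05 (edgeR's quasi-likelihood test, Benjamini-Hochberg over all genes), with a median log2 fold change of 0.19 and a range from -0.99 to 3.00. In KG1A, 8 of 36 rose and 11 fell, with a median of -0.06 and a range from -0.51 to 1.04. Calls were common across all genes, at 69.3% of 14390 genes in U937 (34.6% higher and 34.7% lower) and 47.2% of 14250 in KG1A (23.6% higher and 23.6% lower), and the median over all genes was -0.0044 and -0.0045. The KG1A shares of members called in each direction lay near those of all genes. With a change of at least 2-fold required as well, 9 members rose and 0 fell in U937, against 1 and 0 in KG1A. Across all genes tested, 1252 rose and 510 fell by that rule in U937, and 398 rose and 89 fell in KG1A. On the deposited RPKM, the KG1A split was 10 higher and 7 lower in place of 8 and 11, and across all genes it was 4106 and 2263 in place of 3367 and 3362. Fits without KG1A DMSO library 2, 3 or 4 or without NEL library 1 each called 5 higher in place of 8, and 10 to 12 lower in place of 11. Across all genes those fits called 3129 to 3202 higher and 3081 to 3162 lower.

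The interaction term, which tests over all 16 libraries whether the change with NEL differed between the 2 lines, was called for 27 of 37 members. It was higher in U937 for 21 and lower for 6, with a median difference of 0.34 on the log2 scale. Across all 16117 genes in that fit the share called was 47.4%, with 21.1% higher and 26.3% lower in U937, and with DESeq2-type size factors 4122 and 3483 genes were higher and lower in place of 3404 and 4239 (24 and 5 members). PDK4 had 0 counts in all libraries and was tested nowhere, and HK3 passed the filter on low counts only in fits with U937, where its counts are. By the calls in each line, 4 genes rose in both (SLC2A3, ALDOC, ENO2 and PKM), 5 fell in KG1A and rose in U937 (GPI, ALDOA, LDHA, PDK1 and GBE1), 11 rose in U937 without a call in KG1A, and 3 fell in both (SLC16A3, PDHB and DLAT). SLC16A1 alone rose in KG1A and fell in U937. The same classes were not counted over all genes, so nothing is read from the size of a class. The KG1A calls of ALDOC, PKM, ALDOA, PDK1, DLAT and SLC16A3 were lost in some alternatives, as given beside those genes. Over the 36 members tested in both lines, the log2 fold changes of KG1A and U937 had a Pearson correlation of 0.24 and a Spearman correlation of 0.17, a description across genes that share libraries. The members' share of all counts was 1.29% ± 0.0235 (SD, n = 4) in untreated KG1A and 1.19% ± 0.0155 in treated KG1A. In U937 it was 1.55% ± 0.011 without and 2.00% ± 0.0261 with NEL.

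**Figure D1:**
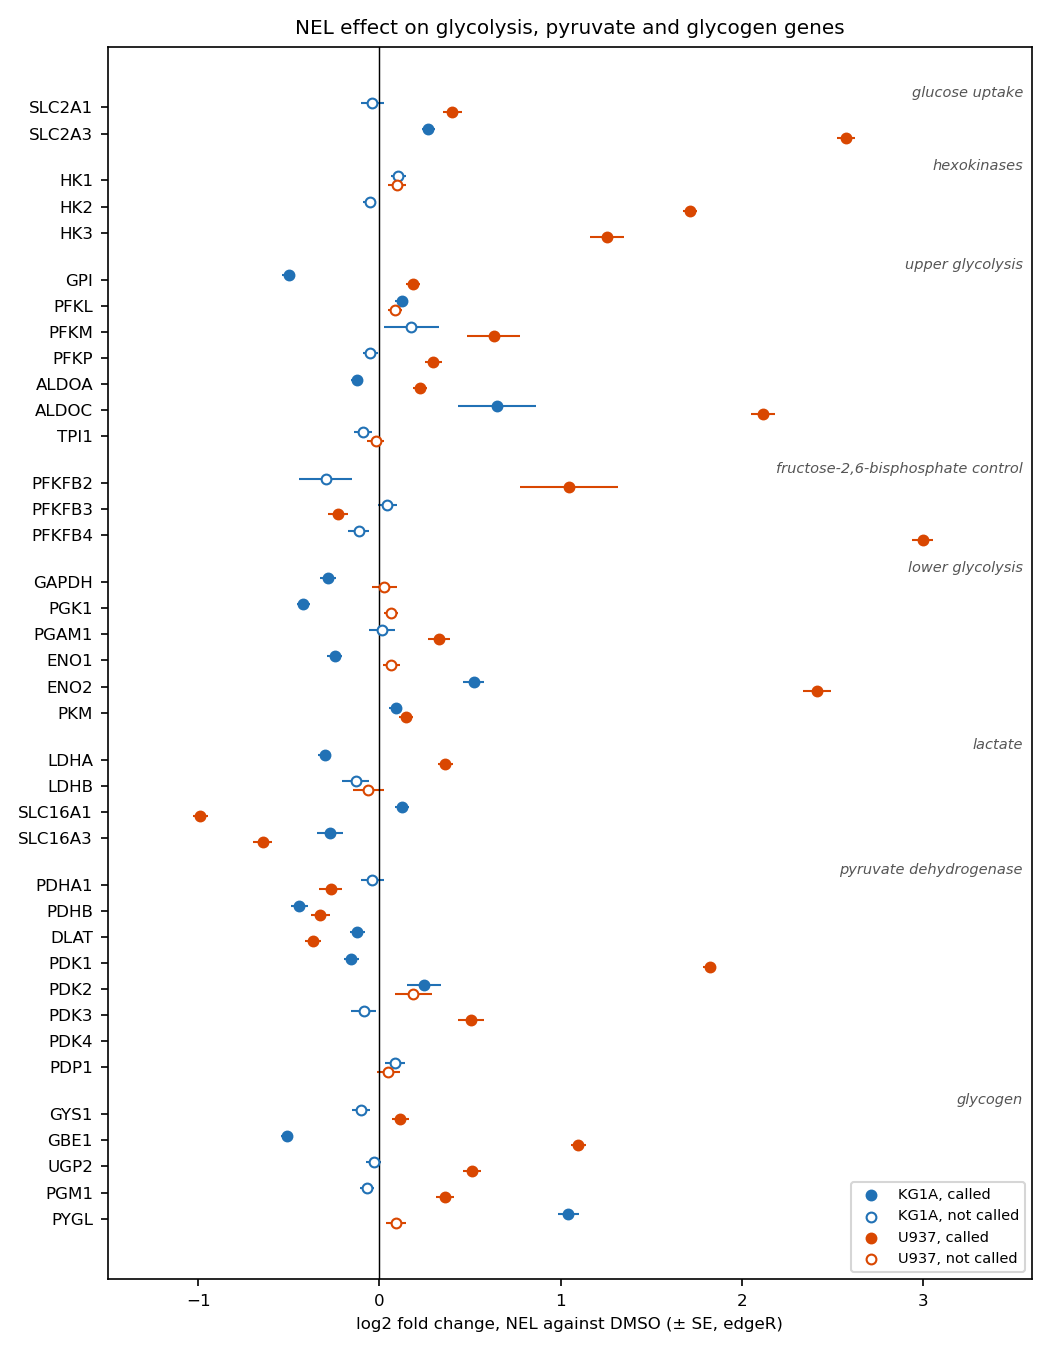
Log2 fold change of NEL against DMSO (horizontal axis) for each member tested, grouped by role, with the standard error of the fit as bars, in KG1A and U937 (filled points passed an adjusted p under 0.05). PFKFB4, SLC2A3, ENO2, ALDOC, PDK1 and HK2 lie between 1.71 and 3.00 in U937, while PYGL is the only member above 1 in KG1A.

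Glucose enters these cells through facilitative transporters, of which SLC2A1 (GLUT1) and SLC2A3 (GLUT3, a high-affinity form) are members. SLC2A3 (ENSG00000059804, chr12:8071826-8088871 on the minus strand, GRCh37) stood at 38.0, 34.3, 38.5 and 35.6 CPM in U937 libraries 1 to 4 with DMSO and at 224, 209, 214 and 223 CPM with NEL. The U937 groups were far apart, a log2 fold change of 2.57 (SE 0.05, adjusted p = 1.26e-13, edgeR). In KG1A it stood at 157, 170, 157 and 164 CPM with DMSO and at 193, 197, 197 and 199 CPM with NEL, again without overlap, a log2 fold change of 0.27 (SE 0.04, adjusted p = 4.04e-05). The difference between the lines was 2.29 (SE 0.06, adjusted p = 3.55e-17). NEL thus moved U937 from 36.6 ± 2.00 CPM (SD, n = 4) to 218 ± 7.28 CPM, past the 197 ± 2.78 CPM of treated KG1A. SLC2A14, a near copy of SLC2A3, held 9 counts over the 4 U937 DMSO libraries and 188 over the 4 NEL libraries, beside 1645 and 10129 counts of SLC2A3, and reads shared by the pair may have been split between them.

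SLC2A1 (ENSG00000117394, chr1:43391052-43424530, minus strand, GRCh37) had 70.9, 70.0, 72.6 and 67.1 CPM in U937 with DMSO and 97.6, 87.5, 98.0 and 86.9 CPM with NEL. It rose by a log2 fold change of 0.40 (SE 0.05, adjusted p = 1.07e-05). In KG1A its groups overlapped, at 109, 98.0, 108 and 93.0 CPM with DMSO and 105, 89.8, 109 and 94.4 CPM with NEL (log2 fold change -0.04, SE 0.07, adjusted p = 0.655).

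Hexokinases trap glucose in the cell as glucose 6-phosphate. HK2 (ENSG00000159399, chr2:75061108-75120486, plus strand, GRCh37), the form that many tumours induce, had 134, 139, 135 and 140 CPM in U937 with DMSO and 431, 464, 438 and 455 CPM with NEL. Its log2 fold change was 1.71 (SE 0.04, adjusted p = 6.70e-13), and every treated library lay above every control library. In KG1A the values were 239, 250, 244 and 241 CPM with DMSO and 226, 241, 242 and 234 CPM with NEL, overlapping groups with a log2 fold change of -0.05 (SE 0.04, adjusted p = 0.246).

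HK3, a hexokinase of granulocytes and monocytes, was a U937 gene here. It had 16.3, 13.7, 15.1 and 15 CPM with DMSO and 39.0, 30.9, 39.9 and 33.4 CPM with NEL in that line, a log2 fold change of 1.25 (SE 0.09, adjusted p = 3.46e-08). KG1A held 2 counts of it over the 4 DMSO libraries, both in library 2, and 0 over the 4 NEL libraries. The fitted difference between the lines (3.62, SE 1.77, adjusted p = 0.104) and the fitted value between the untreated lines (7.95, SE 0.31, adjusted p = 1.98e-13) depend on the prior count at such levels and are no bound. HK1, the housekeeping form, was not called in either line, at 203 ± 7.99 and 220 ± 10.9 CPM in KG1A and 194 ± 9.12 and 207 ± 11.3 CPM in U937 (log2 fold changes 0.10 and 0.10). With the library number as a block, HK1 passed in both (adjusted p = 0.000186 and 0.00293).

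Of the 7 genes from glucose 6-phosphate to the triose phosphates, 5 rose in U937 and 0 fell, while in KG1A 2 rose and 2 fell. Over all genes tested, 34.6% rose and 34.7% fell in U937, and 23.6% rose and 23.6% fell in KG1A. GPI, which makes fructose 6-phosphate, had 626, 607, 611 and 600 CPM in KG1A with DMSO and 423, 434, 443 and 435 CPM with NEL. That fall, by 0.50 on the log2 scale (SE 0.03, adjusted p = 3.99e-08), contrasts with U937, where GPI rose from 959 ± 21.1 to 1086 ± 28 CPM (log2 fold change 0.18, adjusted p = 0.000686). The difference between the lines was 0.67 (SE 0.05, adjusted p = 1.45e-10).

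Phosphofructokinase, the committed step of glycolysis, is encoded by PFKL, PFKM and PFKP. PFKP rose in U937 from 179 ± 10.5 to 220 ± 7.17 CPM (log2 fold change 0.30), and PFKM rose from 4.92 ± 0.257 to 7.60 ± 1.51 CPM (0.63), though PFKM missed the threshold in the odd-numbered libraries alone (adjusted p = 0.0505). PFKL rose in KG1A from 143 ± 2.08 to 157 ± 3.92 CPM (log2 fold change 0.12, adjusted p = 0.0109), but not in the odd-numbered libraries alone (adjusted p = 0.105). PFKL in U937 stood at 154 ± 4.74 and 163 ± 1.81 CPM (adjusted p = 0.0587, and 0.00879 with the block). PFKM and PFKP in KG1A were not called (log2 fold changes 0.18 and -0.05).

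Aldolase cleaves fructose 1,6-bisphosphate, and its forms A and C are both members. ALDOC (ENSG00000109107, chr17:26900133-26904282, minus strand, GRCh37) had 11.8, 10.5, 10.3 and 12.3 CPM in U937 with DMSO and 49.7, 47.9, 48.4 and 48.2 CPM with NEL. This was a log2 fold change of 2.12 (SE 0.07, adjusted p = 1.37e-11). In KG1A it was near the floor, at 1.14, 1.02, 1.02 and 1.10 CPM with DMSO and 1.99, 1.68, 1.47 and 1.62 CPM with NEL. The KG1A groups did not overlap and the call was 0.65 (SE 0.22, adjusted p = 0.0322), which was lost in both the odd-numbered and the even-numbered libraries alone (adjusted p = 0.16 and 0.196), with DESeq2, and without KG1A DMSO library 2, 3 or 4 or NEL library 1 (adjusted p up to 0.0966 over the libraries left out). The difference between the lines was 1.46 (SE 0.22, adjusted p = 8.11e-06).

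ALDOA, the main aldolase in all groups, rose in U937 from 1505 ± 51.3 to 1752 ± 21.7 CPM (log2 fold change 0.22) and fell in KG1A from 1032 ± 14.3 to 952 ± 13.7 CPM (log2 fold change -0.12, adjusted p = 0.00817). The KG1A call of ALDOA was lost on the deposited RPKM (reads scaled by gene length and library total, without TMM factors), with an adjusted p of 0.173. TPI1, which interconverts the triose phosphates, was not called in either line (log2 fold changes -0.09 and -0.02), and with the block it passed in KG1A (adjusted p = 0.000417).

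The PFKFB enzymes make and break down fructose 2,6-bisphosphate, the strongest activator of phosphofructokinase. PFKFB4 (ENSG00000114268, chr3:48555117-48599448, minus strand, GRCh37) had the largest log2 fold change of all members in U937, with 18.2, 16.9, 20.1 and 18.2 CPM with DMSO and 155, 139, 147 and 144 CPM with NEL. That is a log2 fold change of 3.00 (SE 0.06, adjusted p = 1.26e-13), a 7.98-fold rise. KG1A held 53.8, 52.0, 52.3 and 52.6 CPM with DMSO and 53.7, 46.1, 50.1 and 45.7 CPM with NEL, overlapping groups with a log2 fold change of -0.11 (SE 0.06, adjusted p = 0.113, and 0.0239 with the block). The difference between the lines was 3.10 (SE 0.08, adjusted p = 4.29e-17). U937 thus went from 18.4 ± 1.31 to 146 ± 6.92 CPM (SD, n = 4), from below the level of KG1A to above it.

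The other PFKFB genes moved less in absolute terms. PFKFB2 was scarce, at 1.07 ± 0.458 and 2.21 ± 0.411 CPM in U937 (log2 fold change 1.05, adjusted p = 0.00345), and this call was not reached in the odd-numbered libraries alone (adjusted p = 0.0881). In KG1A it had 5.61 ± 0.93 and 4.58 ± 0.56 CPM (adjusted p = 0.112). PFKFB3 went the other way, falling in U937 from 73.8 ± 4.36 to 62.9 ± 3.32 CPM (log2 fold change -0.23, adjusted p = 0.00234), a call lost on RPKM (adjusted p = 0.0726). In KG1A PFKFB3 was at 67.5 ± 3.19 and 69.9 ± 4.09 CPM (adjusted p = 0.533).

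**Figure D2:**
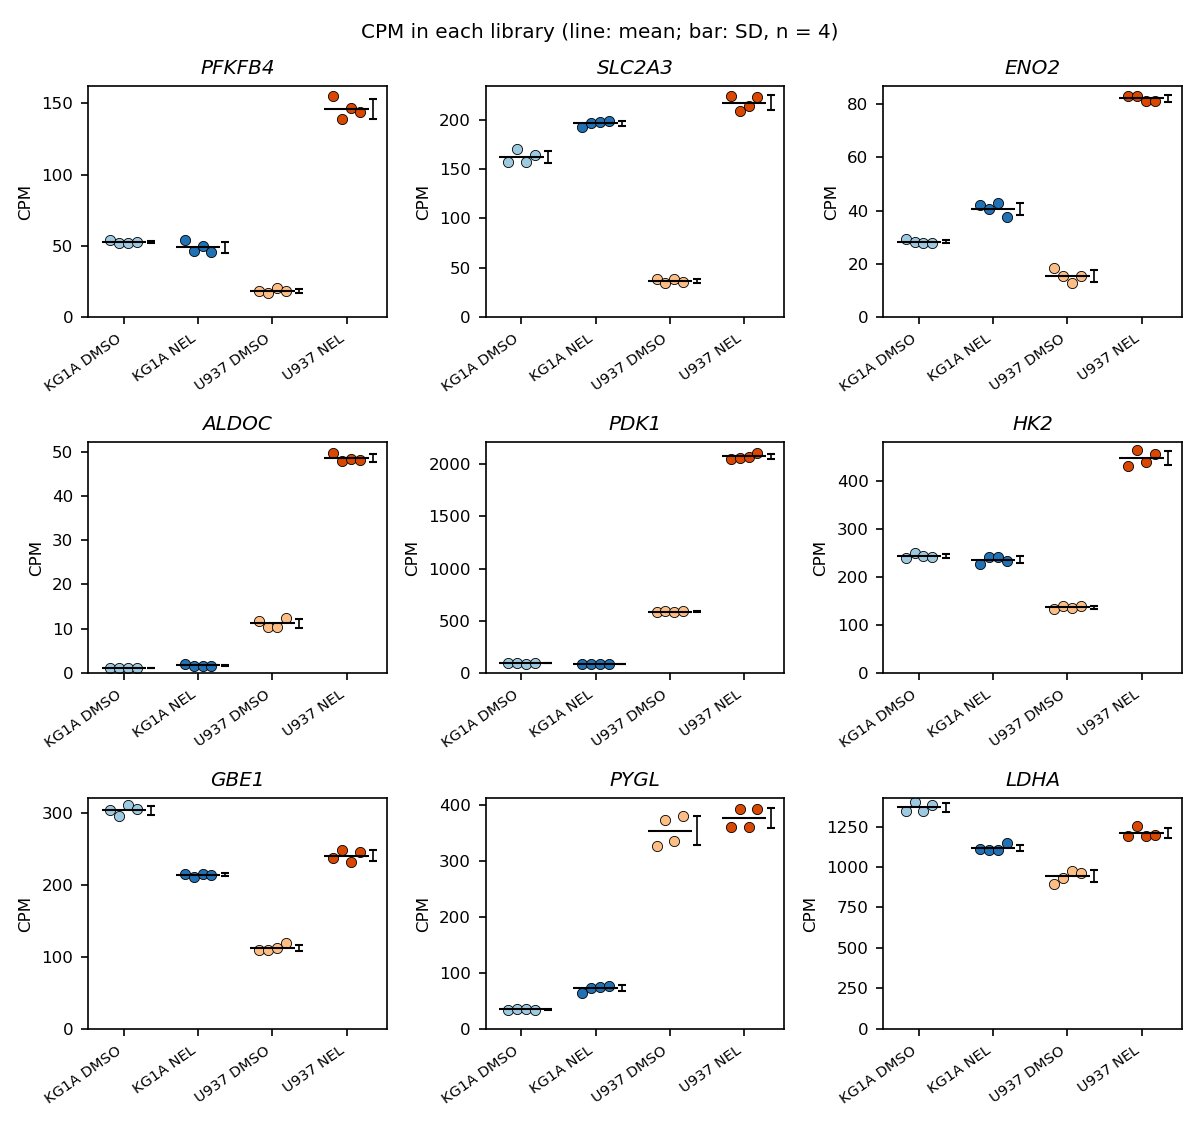
CPM in each of the 16 libraries (points, by group, with the group mean as a line and the SD as a bar) for 9 members; each panel has its own vertical axis starting at 0. In U937 the treated libraries lie above all control libraries for PFKFB4, SLC2A3, ENO2, ALDOC, PDK1, HK2, GBE1 and LDHA, whereas in KG1A PYGL is higher and GBE1 and LDHA are lower with NEL.

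The lower part of glycolysis, from glyceraldehyde 3-phosphate to pyruvate, fell in part in KG1A. GAPDH fell from 3427 ± 113 to 2831 ± 128 CPM (log2 fold change -0.28), PGK1 from 679 ± 16.9 to 509 ± 14.2 CPM (-0.42) and ENO1 from 1721 ± 47.9 to 1456 ± 67 CPM (-0.25), each without overlap of the groups and with adjusted p-values of 0.000106, 3.93e-07 and 0.000208. In U937 the same genes were not called, with log2 fold changes of 0.03, 0.06 and 0.07, though PGK1 and ENO1 passed with the block (adjusted p = 0.0118 and 0.0127) but not with libraries summed in pairs (0.114 and 0.134). The interaction was called for all 3, at 0.30, 0.48 and 0.30.

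ENO2 (ENSG00000111674, chr12:7022909-7032861, plus strand, GRCh37), the neuronal enolase, rose in both lines. U937 had 18.4, 15.3, 12.6 and 15.4 CPM with DMSO and 83.1, 83.2, 81.1 and 81.2 CPM with NEL, a log2 fold change of 2.41 (SE 0.08, adjusted p = 1.57e-11). KG1A had 29.1, 28.2, 27.9 and 28.0 CPM with DMSO and 42.1, 40.4, 42.7 and 37.7 CPM with NEL, a log2 fold change of 0.52 (SE 0.06, adjusted p = 4.60e-06). Neither pair of groups overlapped, and the rise was larger in U937 by 1.88 (SE 0.10, adjusted p = 1.84e-12).

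PGAM1, a phosphoglycerate mutase, rose in U937 from 112 ± 3.88 to 140 ± 12.8 CPM (log2 fold change 0.33) and was at 92.3 ± 9.01 and 93.5 ± 8.38 CPM in KG1A. PKM, the pyruvate kinase of most tissues, rose in U937 from 1927 ± 48 to 2130 ± 44.5 CPM (log2 fold change 0.15, adjusted p = 0.00329). Its KG1A rise from 859 ± 27.4 to 919 ± 12.5 CPM sat at the threshold (log2 fold change 0.09, adjusted p = 0.04997) and was lost in 10 alternatives, among them 7 of the 8 fits with a library left out.

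Lactate dehydrogenase interconverts pyruvate and lactate. LDHA (ENSG00000134333, chr11:18415935-18429972, plus strand, GRCh37) had 1345, 1401, 1347 and 1382 CPM in KG1A with DMSO and 1112, 1103, 1103 and 1145 CPM with NEL. It fell by 0.30 on the log2 scale (SE 0.04, adjusted p = 7.88e-06). In U937 it rose, from 897, 932, 977 and 965 CPM to 1192, 1255, 1192 and 1200 CPM, a log2 fold change of 0.36 (SE 0.04, adjusted p = 2.30e-06). The groups did not overlap in either line, and after NEL the lines lay close, at 1116 ± 20 and 1210 ± 30.4 CPM. LDHB was not called in either line (log2 fold changes -0.13 and -0.06), and it passed as lower in both with the block (adjusted p = 6e-08 and 0.0283). Its U937 DMSO libraries stood at 482 and 475 CPM for the odd numbers and at 575 and 602 CPM for the even ones.

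The lactate carriers fell in U937. SLC16A1 (MCT1) fell from 242 ± 8.56 to 122 ± 4.32 CPM (log2 fold change -0.99, SE 0.04, adjusted p = 1.72e-10), the largest fall of any member there, and SLC16A3 (MCT4, an exporter of lactate in glycolytic cells) fell from 211 ± 16.2 to 135 ± 3.03 CPM (-0.65). In KG1A SLC16A1 rose slightly, from 164 ± 4.94 to 179 ± 4.97 CPM (log2 fold change 0.12, adjusted p = 0.0137). SLC16A3 in KG1A fell from 63.2 ± 7.20 to 52.5 ± 3.01 CPM (-0.27, adjusted p = 0.00663), with overlapping groups and an adjusted p of 0.0721 on RPKM. For SLC16A1 the difference between the lines was -1.12 (adjusted p = 5.63e-13), the only member with a difference of at least 2-fold towards lower in U937.

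Of the 3 members that encode the pyruvate dehydrogenase complex itself, PDHB and DLAT fell in both lines and PDHA1 fell in U937. PDHX, a subunit of the complex from the wider list, rose instead, from 58.8 ± 2.85 to 69.3 ± 3.34 CPM in KG1A (log2 fold change 0.23, adjusted p = 0.00206) and from 38.9 ± 0.221 to 43.2 ± 2.24 CPM in U937 (0.15, adjusted p = 0.0192). PDHB, the beta subunit of its first enzyme, had 84.3, 85.8, 83.6 and 85.1 CPM in KG1A with DMSO and 57.9, 64.8, 62.9 and 64.9 CPM with NEL, a fall by 0.44 on the log2 scale (SE 0.05, adjusted p = 2.38e-06). In U937 it fell from 91.2 ± 4.77 to 72.6 ± 3.31 CPM (log2 fold change -0.33). DLAT, the acetyltransferase of the complex, fell in U937 from 118 ± 5.62 to 91.5 ± 1.5 CPM (-0.37). DLAT in KG1A fell by 0.12 (adjusted p = 0.0265) from 144 ± 5.24 to 133 ± 5.03 CPM with overlapping groups, and this call was lost in 8 alternatives (adjusted p up to 0.356). PDHA1, the alpha subunit, fell in U937 from 293 ± 21.4 to 243 ± 19.9 CPM (-0.27, adjusted p = 0.00167) and was not called in KG1A (-0.04).

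The kinases that switch the complex off moved with 1 of the 4 in front. PDK1 (ENSG00000152256, chr2:173420101-173489823, plus strand, GRCh37) had 580, 595, 584 and 591 CPM in U937 with DMSO and 2050, 2063, 2072 and 2110 CPM with NEL. Its log2 fold change was 1.82 (SE 0.04, adjusted p = 1.35e-13), a 3.54-fold rise from a level that was already high. In KG1A, PDK1 had 95, 96, 89 and 95.9 CPM with DMSO and 84.6, 81.9, 87.9 and 85.0 CPM with NEL, a fall by 0.15 (SE 0.04, adjusted p = 0.00793). That KG1A fall missed the threshold in the odd-numbered libraries alone (adjusted p = 0.138) and on RPKM (adjusted p = 0.202). The difference between the lines was 1.97 (SE 0.05, adjusted p = 3.32e-17).

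PDK3 rose in U937 from 23.3 ± 2.16 to 33.0 ± 0.942 CPM (log2 fold change 0.51, adjusted p = 1.80e-05) and was not called in KG1A (-0.09). PDK2 rose in KG1A from 27.6 ± 0.729 to 32.9 ± 5.20 CPM (0.25, adjusted p = 0.0389), where NEL library 1 stood at 40.4 CPM above the 28.6 to 31.9 CPM of the others. The call was lost without that library (adjusted p = 0.114), without any 1 of the 4 DMSO libraries, and in the even-numbered libraries alone (adjusted p = 0.288). PDK2 was not called in U937 (0.19, adjusted p = 0.119). PDK4 was at 0 counts in every library, which allows up to 0.0697 CPM in a group of 4. PDP1, the phosphatase that switches the complex back on, was not called in either line (log2 fold changes 0.09 and 0.05).

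The NEL effect on all 5 glycogen genes differed between the lines by the interaction term, higher in U937 for 4 and lower for PYGL. Over all genes tested, that term was called higher in U937 for 21.1% and lower for 26.3%. GBE1 (ENSG00000114480, chr3:81538850-81811312, minus strand, GRCh37), the branching enzyme, had 303, 295, 310 and 306 CPM in KG1A with DMSO and 215, 211, 215 and 214 CPM with NEL, a fall by 0.51 (SE 0.03, adjusted p = 2.79e-08). In U937 it rose from 110, 110, 113 and 119 CPM to 237, 249, 231 and 245 CPM, a log2 fold change of 1.10 (SE 0.04, adjusted p = 7.01e-11). With NEL the lines lay at 214 ± 1.81 and 241 ± 7.93 CPM, and the difference between their changes was 1.60 (SE 0.05, adjusted p = 7.29e-16).

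PYGL (ENSG00000100504, chr14:51324609-51411454, minus strand, GRCh37), the liver-type phosphorylase that breaks glycogen down, was the member that rose most in KG1A. It had 33.5, 35.9, 36.4 and 34.6 CPM with DMSO and 65.0, 73.3, 75 and 77.3 CPM with NEL, a log2 fold change of 1.04 (SE 0.06, adjusted p = 6.61e-09). In U937 it was already at 354 ± 26.2 CPM with DMSO and stood at 376 ± 18.1 CPM with NEL (log2 fold change 0.09, adjusted p = 0.15, and 0.00121 with the block). The difference between the lines was -0.96 (adjusted p = 4.19e-09).

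GYS1, the glycogen synthase outside the liver, showed little change. KG1A had 96.1, 91.0, 95.1 and 94.4 CPM with DMSO and 94.2, 90.4, 86.7 and 81.3 CPM with NEL (log2 fold change -0.10, SE 0.05, adjusted p = 0.0982, and 0.00921 with the block). U937 had 120, 117, 124 and 114 CPM with DMSO and 134, 119, 133 and 127 CPM with NEL, overlapping groups with a call at 0.11 (SE 0.05, adjusted p = 0.0457) that was lost in 9 alternatives. PGM1 and UGP2, which convert glucose 6-phosphate towards the sugar donor of glycogen, rose in U937 by log2 fold changes of 0.36 and 0.51, from 157 ± 9.07 to 202 ± 8.09 CPM and from 114 ± 7.66 to 162 ± 5.80 CPM. Neither was called in KG1A (-0.07 and -0.03), and PGM1 passed there with the block (adjusted p = 0.0328).

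Levels between genes are compared on the deposited RPKM, which divide by exon length. GAPDH was highest in all 4 groups, between 973 and 1131 RPKM on average, followed by ENO1 at 376 to 627 RPKM. In U937 with DMSO, ALDOA (236 ± 8.88 RPKM, SD, n = 4), PKM (217 ± 5.17), LDHB (172 ± 20.9), LDHA (146 ± 4.65), TPI1 (145 ± 6.40) and PGK1 (138 ± 4.06) came next, and of these the neighbours LDHA, TPI1 and PGK1 lay within each other's spread. PDK1 was at 37.5 ± 0.544 RPKM in that group, above every other gene of the pyruvate dehydrogenase branch except PDHA1 (63.0 ± 4.64), and with NEL it reached 141 ± 2.54 RPKM, close to PGK1 (154 ± 2.26). In KG1A PDK1 was at 6.10 ± 0.222 and 5.74 ± 0.166 RPKM. The lowest members apart from HK3 and PDK4 were PFKFB2, PFKM and, in KG1A, ALDOC, all at or below 1.07 RPKM.

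**Figure D3:**
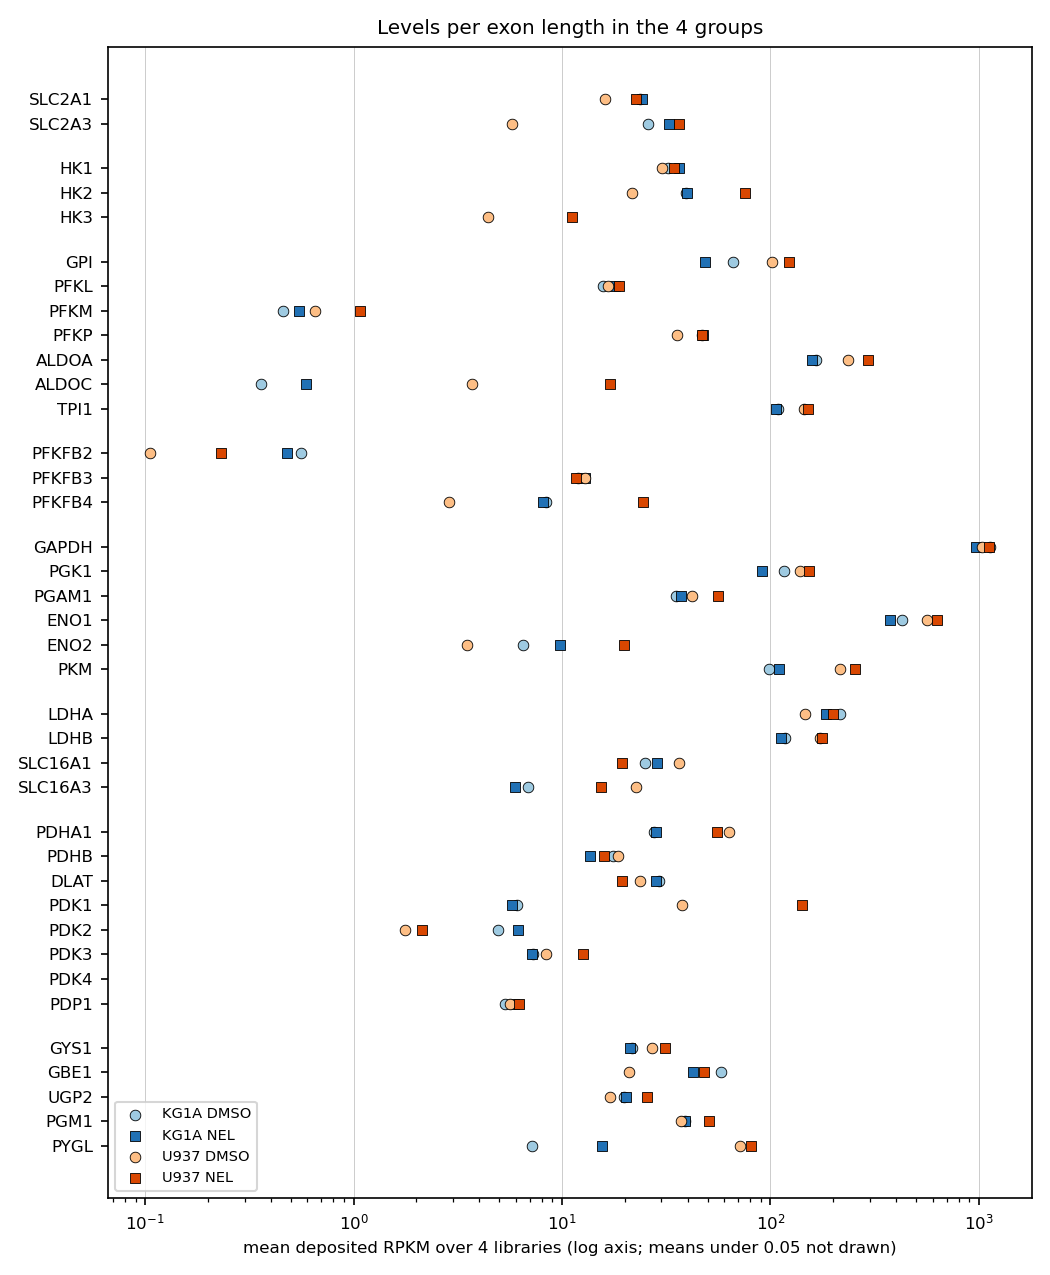
Mean deposited RPKM on a log axis for each member in the 4 groups, ordered by role, with means under 0.05 RPKM not drawn. GAPDH and ENO1 lie at the top in every group, and PDK1 runs from 6.10 RPKM in KG1A with DMSO to 141 RPKM in U937 with NEL.

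Enzymes with several gene copies changed their balance in U937. By summed RPKM, HK2 was 38.5% ± 0.679 of the hexokinase total with DMSO and 62.4% ± 0.756 with NEL (SD, n = 4), while HK1 went from 53.7% to 28.4% and the total from 56.5 to 122 RPKM. SLC2A3 went from 26.3% ± 0.812 to 61.7% ± 1.62 of the SLC2A1 and SLC2A3 total, and that total from 21.8 to 59.0 RPKM. PDK1 already made up 78.8% ± 0.976 of the kinase total in U937 with DMSO and made up 90.6% ± 0.14 with NEL. The lactate dehydrogenase total shifted from 46.0% ± 2.96 to 53.3% ± 2.32 LDHA.

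ALDOC and ENO2 stayed minor forms despite their large fold changes. ALDOC was 1.54% ± 0.157 of the ALDOA and ALDOC total in U937 with DMSO and 5.50% ± 0.104 with NEL. ENO2 was 0.614% ± 0.0927 and 3.05% ± 0.129 of the ENO1 and ENO2 total. ENO3, a gene of the wider list left out of that total, was at 66.8 ± 4.04 and 63.0 ± 3.27 RPKM in U937, above ENO2. In KG1A the shares lay closer together, with HK2 at 54.9% and 52.2%, LDHA at 64.9% and 62.2%, SLC2A3 at 52.1% and 57.5% and PDK1 at 33.4% and 30.3%. These shares were not tested.

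**Figure D4:**
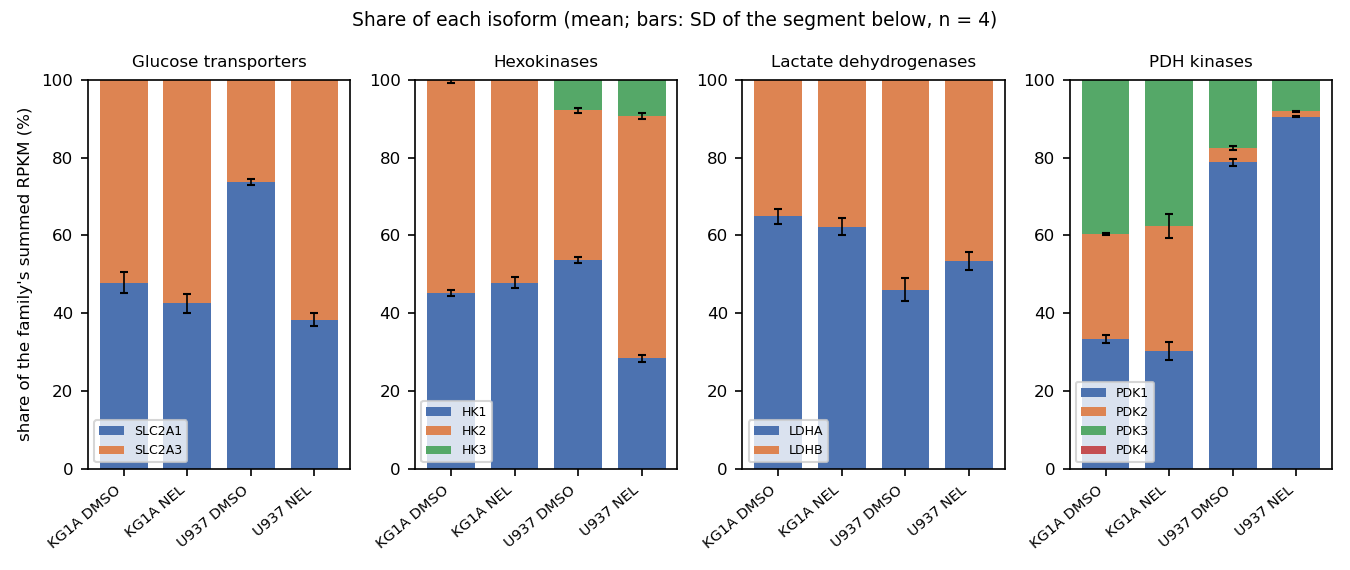
Share of summed deposited RPKM (percent, stacked bars of group means, SD of 4 libraries as error bars) among genes of 1 enzyme or carrier family in the 4 groups. In U937 the SLC2A3 share goes from 26.3% to 61.7% and the HK2 share from 38.5% to 62.4% with NEL, against 52.1% to 57.5% and 54.9% to 52.2% in KG1A.

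Without NEL the lines already differed at most members. Of 37 tested, 17 were higher and 15 lower in U937, with 86.4% of all 15181 genes called in that comparison (43.0% higher and 43.4% lower), and nothing is read from the members' count beside that share. In a single model of all 16 libraries the split was 21 higher and 12 lower. HK3 had 675 counts over the 4 U937 DMSO libraries against 2 in KG1A. Scaled by library totals with TMM factors, that was a ratio of 323 (exact 95% interval 89.2 to 2675, counting error only). With NEL, HK3 was at least 529-fold higher in U937, taken against 3 counts over the 4 KG1A libraries. ALDOC (log2 fold change 3.29, SE 0.15, adjusted p = 2.66e-12), PYGL (3.25, SE 0.06, adjusted p = 8.41e-18) and PDK1 (2.56, SE 0.04, adjusted p = 2.64e-18) were also higher in U937, with no overlap between the 4 libraries of each line.

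Of the 9 members that rose at least 2-fold in U937, 6 started lower there than in KG1A. Over all genes tested, 43.4% were called lower in untreated U937, and the share among all genes with such a rise was not counted. SLC2A3 was lower in untreated U937 (log2 fold change -2.23), and the log2 fold changes were -2.46 for PFKFB2, -1.60 for PFKFB4, -1.51 for GBE1, -0.96 for ENO2 and -0.92 for HK2. PDK1, ALDOC and HK3 rose from a level that was already higher than in KG1A. Since the untreated U937 libraries enter both this comparison and that of NEL with DMSO, the values are set side by side and no relation between them is tested. PKM (1.08), PDHA1 (1.13) and SLC16A3 (1.66) were the other members at least 2-fold higher in untreated U937, and PDK2 (-1.55) was the other at least 2-fold lower. Smaller differences towards higher in U937, between 0.19 and 0.57, were called for GPI, PFKM, ALDOA, TPI1, PGK1, PGAM1, ENO1, LDHB, SLC16A1 and GYS1. Towards lower, from -0.13 to -0.96, they were called for SLC2A1, HK1, HK2, PFKP, GAPDH, ENO2, LDHA, DLAT, UGP2 and PGM1, of which HK1, GAPDH and PGM1 lost the call on RPKM and in the model of all 16 libraries. PFKL, PFKFB3, PDHB, PDK3 and PDP1 were not called.

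A wider list of 73 other genes of these pathways, 72 of them matched to the table, was counted in the same fits. In U937 19 of 49 tested rose and 18 fell (median log2 fold change 0.05), and in KG1A 12 of 52 rose and 17 fell (0.02). Over all genes tested, 34.6% rose and 34.7% fell in U937, and 23.6% rose and 23.6% fell in KG1A. By rule the largest called changes are named. SLC2A5, a fructose carrier, rose in KG1A from 6.61 ± 1.02 to 12.9 ± 1.34 CPM (log2 fold change 0.95) and in U937 from 134 ± 9.88 to 282 ± 30 CPM (1.08), and GYG1, the glycogen primer, rose by 0.75 and 0.59. PYGM, the muscle phosphorylase, and EPM2A, the glycogen phosphatase laforin, fell in KG1A, from 2.45 ± 0.681 to 0.61 ± 0.393 CPM and from 17.3 ± 1.99 to 7.40 ± 1.11 CPM. In U937 SLC2A14 (4.26, from 0.201 ± 0.113 to 4.04 ± 0.40 CPM) and GALM, which converts the forms of galactose (2.17, from 0.49 ± 0.185 to 2.23 ± 0.311 CPM), rose most, and SLC2A4 (-1.58) and GAPDHS (-0.91) fell most, all at low levels. The pentose phosphate branch, which leaves glycolysis at glucose 6-phosphate, had 2 of 9 genes higher and 5 lower in U937, beside the 69.3% of all genes called there. In KG1A it had 2 higher and 4 lower, beside 47.2% of all genes called.

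The members' promoters were read for ACGTG, a form of the core motif of hypoxia response elements, and for the E-box CACGTG. The form GCGTG of that core was not searched. The E-box contains ACGTG and is bound by MYC, USF and MondoA family proteins. Both strands were searched in windows of 300 bases, from 250 before to 50 after each RefSeq start (GRCh38), and 34 of the 38 members had an entry, with 65 starts. SLC2A3, PFKFB2, SLC16A1 and PDP1 had none. ACGTG was in 38.5% of the members' windows against 21.4% of the 35116 windows listed for all genes, and in 61.8% of matched members against 24.9% of 27305 symbols. The members list more windows per gene (65 for 34) than all symbols do (35116 for 27305), which by itself raises a share counted per gene. CACGTG was in 12.3% against 7.26% of windows and 23.5% against 8.77% of genes. Of the 9 members that rose at least 2-fold in U937, 7 had an entry, and 5 of these held ACGTG and 2 CACGTG. A match is a description of these letters only.

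The 250 bases before the most upstream listed start are shown for 6 members of which 5 rose at least 2-fold in U937 and LDHA rose there and fell in KG1A. Each is written 5′ to 3′ on the strand of the gene, with matches to ACGTG or CACGTG on either strand in capitals (a match on the other strand reads CACGT). Their GRCh38 positions are chr3:48556804-48557053 (PFKFB4, minus strand), chr12:6914330-6914579 (ENO2, plus), chr17:28576896-28577145 (ALDOC, minus), chr2:74833877-74834126 (HK2, plus), chr3:81761646-81761895 (GBE1, minus) and chr11:18394313-18394562 (LDHA, plus).
PFKFB4: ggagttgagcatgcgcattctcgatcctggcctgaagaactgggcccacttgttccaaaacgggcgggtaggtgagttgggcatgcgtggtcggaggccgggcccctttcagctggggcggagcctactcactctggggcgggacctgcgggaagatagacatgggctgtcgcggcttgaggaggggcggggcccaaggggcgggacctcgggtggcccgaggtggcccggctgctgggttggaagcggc
ENO2: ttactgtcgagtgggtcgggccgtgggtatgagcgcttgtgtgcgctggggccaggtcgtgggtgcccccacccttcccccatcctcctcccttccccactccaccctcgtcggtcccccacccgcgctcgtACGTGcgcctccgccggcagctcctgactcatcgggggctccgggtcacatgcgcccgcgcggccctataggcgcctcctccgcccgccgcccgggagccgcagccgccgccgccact
ALDOC: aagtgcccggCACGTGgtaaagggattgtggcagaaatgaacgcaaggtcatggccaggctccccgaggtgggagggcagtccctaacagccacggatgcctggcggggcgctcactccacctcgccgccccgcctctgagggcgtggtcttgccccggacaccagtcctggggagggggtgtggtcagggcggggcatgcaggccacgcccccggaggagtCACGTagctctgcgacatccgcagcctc
HK2: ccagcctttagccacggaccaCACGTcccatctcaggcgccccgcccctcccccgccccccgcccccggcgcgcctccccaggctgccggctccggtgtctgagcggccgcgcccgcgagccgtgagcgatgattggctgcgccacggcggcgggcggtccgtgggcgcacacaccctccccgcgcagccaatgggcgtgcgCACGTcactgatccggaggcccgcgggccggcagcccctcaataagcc
GBE1: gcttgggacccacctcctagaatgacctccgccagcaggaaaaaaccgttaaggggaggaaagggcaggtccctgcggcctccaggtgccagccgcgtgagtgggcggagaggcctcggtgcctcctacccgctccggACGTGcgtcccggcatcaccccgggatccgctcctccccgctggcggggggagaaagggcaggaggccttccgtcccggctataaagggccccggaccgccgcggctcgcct
LDHA: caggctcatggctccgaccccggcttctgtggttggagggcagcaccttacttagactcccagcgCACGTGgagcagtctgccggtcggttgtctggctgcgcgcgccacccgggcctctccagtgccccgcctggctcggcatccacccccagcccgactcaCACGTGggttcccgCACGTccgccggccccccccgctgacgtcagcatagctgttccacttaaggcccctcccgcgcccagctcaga
The PFKFB4 stretch holds neither of the motifs searched, and forms of the hypoxia response core other than ACGTG were not marked in any stretch. The LDHA stretch holds 5 matches to ACGTG, of which 4 belong to 2 CACGTG boxes that read the same on both strands. The ENO2 and GBE1 stretches hold 1 each, that of HK2 2 and that of ALDOC 3. HK2 has another listed start, whose window (chr2:74834920-74835219) holds CACGTG at -194 and -149 from the start. Any relation between matches and the changes with NEL was not tested.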

How the data were processed

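The submitters' processing notes name bcl2fastq 2.18.0.12, TopHat2, HTSeq 0.11.2 and the build hg19 (GRCh37). Which annotation and which strand option the counting used is not given in the sources used here. Raw read counts per gene and RPKM of the same libraries were deposited by the authors, and each RPKM value equals the count divided by exon length and library total, to within a relative 1.86e-07. Symbols were found for 32562 of 34618 gene IDs, and IDs without one held 0.878% of counts. All columns matched a sample. Reads of processed pseudogenes of the members were not analysed here.

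Counts were tested with edgeR 4.0.16 in R 4.3.3 (quasi-likelihood fit and test, TMM factors, its low-count filter at 10 counts and a total of 15, Benjamini-Hochberg adjustment over all genes, calls at an adjusted p under 0.05), over the 8 libraries of each comparison, or all 16 for the interaction. The standard error is the log2 fold change divided by the square root of F. Printed CPM use the TMM factors of all 16 libraries. For members other than HK3 and PDK4, their log2 ratios depart from the fitted values by at most 0.0114 within a line and 0.0968 between lines. The members and the gene lists were chosen with earlier results of these data known. Full statistics went to the 6 called members of largest change in each line, the 4 of largest interaction, the 4 of largest line difference, and SLC2A1, HK2, LDHA, PDK1 and GYS1; of the wider list, to the 2 called genes each way of largest change in each line. Promoter windows are from RefSeq (GRCh38). Intervals and floors cover counting error only.

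The labels number the libraries 1 to 4 in each group. Deviations of same-numbered libraries correlated at 0.289 to 0.369 in KG1A, 0.316 to 0.364 in U937 and 0.277 to 0.320 between the DMSO groups. Different numbers of the same odd or even set correlated as highly, and with the sets removed every correlation lay within 0.0402 of 0. The main fits took account of neither the numbers nor the sets, and pairing by number entered only in the fits with the block. Alternatives used DESeq2 1.42.0, limma 3.58.1, limma-trend on log2(RPKM + 0.5) and log2(RPKM + 0.1), other size factors and filters, the block, each odd or even set alone or as a covariate, libraries summed in pairs, and each library left out.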

Additional observations from a re-analysis of the deposited data

Results flagged for a closer look

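In 4 of the 147 groups of 4 libraries checked, 1 library stood apart from the other 3 by Dixon's criterion, which chance meets in about 1 group in 20. HK3 had 0.185 CPM in KG1A DMSO library 2 and 0 in the others. PFKFB2 had 7.0 CPM in KG1A DMSO library 1 against 5.10 to 5.21 CPM in the others. LDHA had 1255 CPM in U937 NEL library 2 against 1192 to 1200 CPM. PDK1 had 89.0 CPM in KG1A DMSO library 3 against 95 to 96 CPM.

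The NEL effect differed between the lines by the interaction term in 27 members, given here as log2 differences, U937 minus KG1A. Among carriers and hexokinases these were SLC2A1 0.43, SLC2A3 2.29 and HK2 1.76. In upper glycolysis and its control they were GPI 0.67, PFKP 0.34, ALDOA 0.34, ALDOC 1.46, PFKFB2 1.33, PFKFB3 -0.28 and PFKFB4 3.10. In lower glycolysis they were GAPDH 0.30, PGK1 0.48, PGAM1 0.31, ENO1 0.30 and ENO2 1.88. For lactate they were LDHA 0.65, SLC16A1 -1.12 and SLC16A3 -0.38. In the pyruvate dehydrogenase branch they were PDHA1 -0.24, DLAT -0.26, PDK1 1.97 and PDK3 0.58. Among glycogen genes they were GYS1 0.21, GBE1 1.60, UGP2 0.53, PGM1 0.42 and PYGL -0.96. The difference of PFKFB3 was lost with DESeq2 and in the odd-numbered libraries alone (adjusted p = 0.116), and that of PDHA1 in 15 alternatives (adjusted p up to 0.259).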

How the results depend on the processing

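Of 3493 values of single members under the alternatives, 3316 kept their direction and their side of the threshold, 85 lost a call, 92 gained one, and 0 called values changed sign. In KG1A, 3 members were higher and 10 lower at an adjusted p under 0.01 (8 and 11 in the full fit), beside 2510 and 2389 of all genes. The odd-numbered libraries alone gave 5 higher and 12 lower, beside 3209 and 3192 of all genes. Limma-trend on RPKM gave 10 higher and 7 lower with either pseudocount, beside 4106 and 2263 of all genes with 0.5 and 4093 and 2250 with 0.1. With at least 2-fold required, the counts called, higher and lower were 1, 1 and 0 in KG1A and 9, 9 and 0 in U937, while the interaction gave 9, 8 and 1 and the untreated lines gave 12, 7 and 5. By that rule 925 of all 16117 genes were higher and 763 lower for the interaction. Between the untreated lines, 3123 of 15181 were higher and 3532 lower. With each library left out in turn, the counts called, higher and lower ranged from 15 to 18, 5 to 8 and 10 to 12 in KG1A. In U937 they ranged from 26 to 27, 20 to 21 and 6 to 6, for the interaction from 26 to 27, 21 to 22 and 5 to 6, and from 31 to 33, 17 to 18 and 14 to 15 between the lines.

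With the replicate block, 25 members were called in KG1A (9 higher, 16 lower) and 33 in U937 (26 and 7), and the counts for the difference (27) and between the lines (32) were as without it. Calls rose across all genes too. In KG1A the block called 4111 genes higher and 4235 lower in place of 3367 and 3362. In U937 it called 5404 and 5467 in place of 4985 and 4993. The member calls added by the block are named beside the genes. With libraries 1 and 2, and 3 and 4, summed, 24 were called in KG1A (9 higher, 15 lower) and 29 in U937 (23 and 6). Across all genes those fits called 4064 higher and 3998 lower in KG1A, and 5608 and 5597 in U937. Of the calls added by the block, PGM1 in KG1A and PFKL, PGK1, ENO1 and LDHB in U937 were not reached with the summed libraries. The odd-numbered and the even-numbered libraries alone called 17 and 21 members in KG1A, and 28 and 28 in U937. Across all genes, the odd-numbered ones called 3209 higher and 3192 lower in KG1A, and 4777 and 4836 in U937. The even-numbered ones called 3295 and 3208 in KG1A, and 4755 and 4784 in U937. Members under about 5 CPM (PFKM, PFKFB2, and ALDOC in KG1A) are limited by depth, and PDK4 could not be measured.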

Other observations

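PGK2, an intronless copy of PGK1 known from the testis, had 1530 counts over the 4 KG1A DMSO libraries and 849 over the 4 NEL libraries, and 0 in U937 with either treatment, while PGK1 had 29233, 22590, 36862 and 39834 counts in the same order of groups. In CPM, PGK2 fell in KG1A from 35.5 ± 2.73 to 19.1 ± 1.38 (log2 fold change -0.90, SE 0.07, adjusted p = 3.25e-07, edgeR). Reads that fit both copies may have been split, and their number is not known from the deposited tables. FBP1, the gluconeogenic enzyme that reverses phosphofructokinase, was at 0 in KG1A, and in U937 it rose from 0.578 ± 0.209 to 2.52 ± 0.174 CPM (2.10, adjusted p = 3.36e-06).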
